A study of Homo sapiens with 4 samples.

Results

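The 9 genes described here, CDKN1A, MDM2, GDF15, SESN1, FDXR, XPC, RRM2B, TP53I3 and ZMAT3, are established direct targets of the transcription factor p53, and they are 9 of the 24014 genes of the count table. They were taken by name, as the rows of the table that carry these symbols. Total RNA of SK-N-SH, a line derived from human neuroblastoma, was sequenced in 4 libraries to ask what the long non-coding RNA AP1AR-DT changes in these cells. In the 2 control libraries the wild type cells had received a lentiviral vector without an insert. In the 2 AP1AR-DT_OE libraries they had received a recombinant lentivirus that carries AP1AR-DT, which is also named AC109347.1. For AP1AR-DT_OE replicate 2, the labels on genotype and treatment give that name with a different version number than the title does; the title was used. All 4 libraries thus came from 1 cell line transduced with a lentivirus, and no library of untransduced cells was analysed here.

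p53 is activated by DNA damage and other stresses, and it then switches on genes that stop the cell cycle, repair DNA, adjust metabolism or start cell death. MDM2 is both a p53 target and the ubiquitin ligase that marks p53 for degradation, so that p53 and MDM2 form a negative feedback loop. Neuroblastomas usually keep an intact p53 gene at diagnosis, and their p53 output is studied because MDM2 inhibitors depend on it.

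The libraries held between 21988065 and 26184599 counts, and between 19833 and 21280 genes had a count above 0. Read counts were divided by a size factor for each library to give normalized read counts. AP1AR-DT (ENSG00000260526) rested on 3 and 18 counts in the controls against 680 and 1065 in the libraries with AP1AR-DT_OE, which matches the labels (Log2FC = 6.63, SE = 0.64, adjusted p = 3.64e-21, DESeq2 Wald test). The 3 counts of control 1 are less than a read pair is worth in this table, and in edgeR's quasi-likelihood test AP1AR-DT, with a Log2FC of 6.60, did not pass (adjusted p = 0.39). Markers of adrenergic neuroblastoma cells summed to 24078 to 29800 normalized read counts in every library, with 8 of 9 markers in the table and TH not among them. The 9 mesenchymal markers summed to between 138235 and 198187, and 4 Schwann or glial markers were measured. The lowest adrenergic and mesenchymal sums and the highest ones were all in controls, so the groups overlapped in both. The glial sums, at 129 and 109 in the controls and at 165 and 130 with AP1AR-DT_OE, did not overlap.

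The sequences that p53 typically binds are pairs of the p53 consensus half-site. This half-site is a short core of C, A or T bases, and G with purines before it and pyrimidines after it. Such pairs were looked for near the annotated starts of the 9 genes, without assuming that each gene has one. RefSeq promoter windows of GRCh38.p14, from 250 bases before to 50 bases after each annotated start, were found for 8 of the 9 genes; RRM2B was not matched. A full site was taken as 2 half-sites up to 13 bases apart with at most 3 mismatches in all and with the C and G kept; the half-site reads the same on both strands. The best such site of each gene is given below 5′ to 3′ on the strand of the gene, with the half-sites in capitals and 5 bases on each side where the window allows.
MDM2: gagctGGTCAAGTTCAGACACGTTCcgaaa
FDXR: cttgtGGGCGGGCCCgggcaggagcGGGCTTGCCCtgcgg
GDF15: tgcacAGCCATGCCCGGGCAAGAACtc
SESN1: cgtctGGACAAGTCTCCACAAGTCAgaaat
ZMAT3: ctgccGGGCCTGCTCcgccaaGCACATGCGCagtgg

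The MDM2 sequence (chr12:68808918-68808947, plus strand) and the FDXR sequence (chr17:74872991-74873030, minus strand) held a site with 2 mismatches. At most 2 mismatches were found in 2.93% of all 35116 promoter windows of the same length. This share and those below count single windows. MDM2, FDXR, SESN1 and ZMAT3 had more than 1 window each, so their best sites are not directly comparable with these shares. The GDF15 sequence (chr19:18386181-18386207, plus strand) lay just downstream of the annotated start, at positions 29 to 48 counted from it. It had 3 mismatches, as did the sequences of SESN1 (chr6:109009013-109009042, minus strand) and ZMAT3 (chr3:179071862-179071897, minus strand), and 12.8% of all windows held a site with at most 3. The first half-site of SESN1 and the second of FDXR had no mismatch, and 6.63% of all windows held at least 1 such exact half-site. The windows of CDKN1A, XPC and TP53I3 held no site by this rule. These matches describe letters in short windows, and p53 sites farther from every annotated start, within introns or not, lie outside them. All the sequences shown lay inside the gene bodies, whose positions are given with each gene below. The MDM2 sequence lay ahead of an annotated start farther into its gene body (chr12:68808177-68845544).

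In the fit without a covariate, no difference in p53 target RNA between AP1AR-DT_OE and control libraries was called. Of the 9 genes, GDF15 had the lowest unadjusted p, while the adjusted p did not set it apart from the others. None of the 9 genes passed an adjusted p of 0.05, where 33 of all 24014 genes did (0.137%). GDF15, a secreted stress cytokine, was 2.49-fold lower with AP1AR-DT_OE at an unadjusted p of 0.0065, and it alone among the 9 was below an unadjusted p of 0.05, against 196 of all genes (0.816%). The other 8 differed by a Log2FC between -0.28 and -0.03, each with an interval that spanned 0. edgeR's quasi-likelihood test called 0 genes in the whole table, so its 0 calls among the 9 say nothing about them; GDF15 had an unadjusted p of 0.0226 there.

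**Figure D1:**
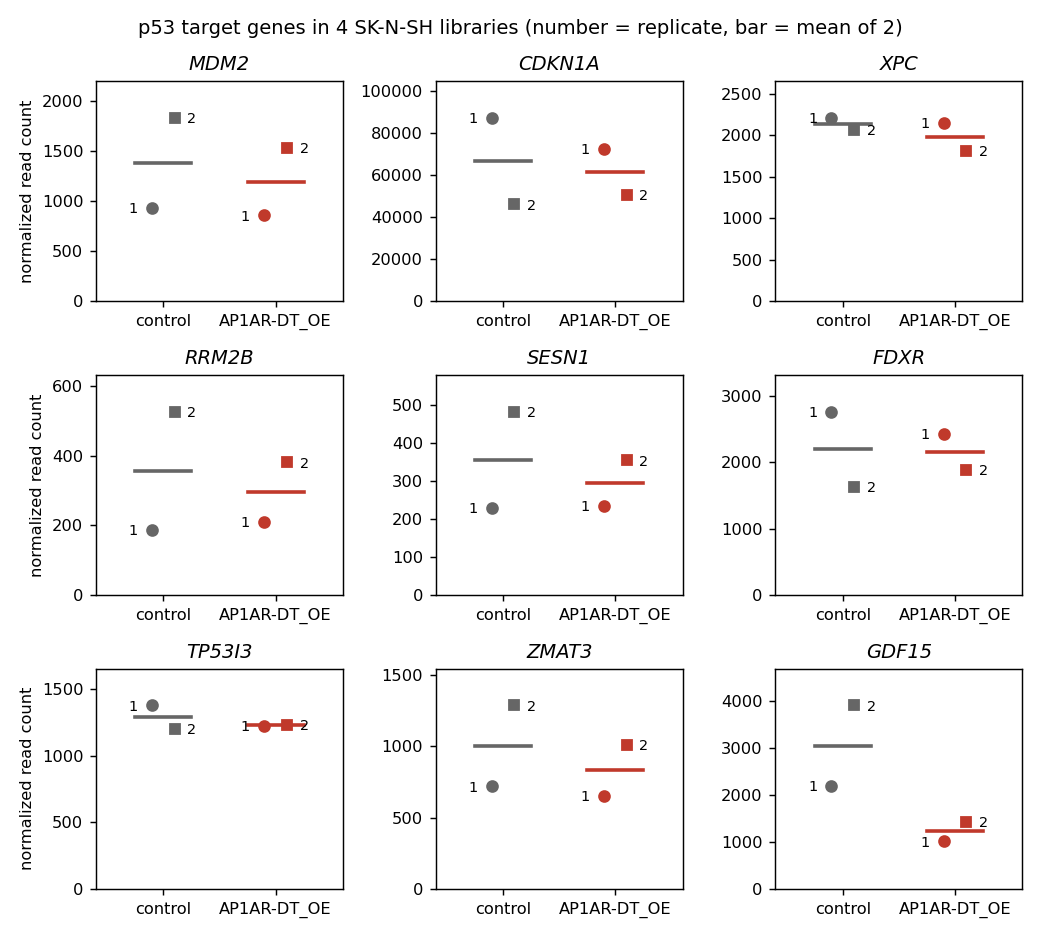
Normalized read counts (linear axis from 0, one panel per gene) of the 9 p53 targets in the 2 control libraries (grey) and the 2 AP1AR-DT_OE libraries (red); numbers give the replicate and bars the mean of 2. In the GDF15 panel alone both AP1AR-DT_OE libraries, at 1012 and 1434, lie below both controls, at 2189 and 3906.

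MDM2, the ligase that closes the feedback loop on p53 (ENSG00000135679, GRCh38 chr12:68808177-68845544), had 932 and 1831 normalized read counts in controls 1 and 2, and 858 and 1531 in AP1AR-DT_OE libraries 1 and 2. Replicate 1 was the lower library in both groups, and the 2 groups overlapped. The means were 1381 ± 636 and 1195 ± 476 (SD, n = 2 each), a Log2FC of -0.21 with a 95% interval from -1.23 to 0.81. MDM2 overlaps CPM, which had between 174 and 477 counts per library against 782 to 2373 for MDM2, and with no statement on strand the reads of the pair cannot be fully told apart.

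CDKN1A encodes p21, the cyclin-dependent kinase inhibitor that carries out p53-dependent cell cycle arrest (ENSG00000124762, chr6:36676460-36687337). It was at 87189 and 46177 normalized read counts in the controls and at 72375 and 50512 in the AP1AR-DT_OE libraries. Both AP1AR-DT_OE values thus lay between the 2 controls. Averaged over the 4 libraries and without division by transcript length, CDKN1A ranked 20 among the 24014 genes. It took between 0.229% and 0.331% of the counts of a library. The means of 66683 ± 28999 and 61444 ± 15459 (SD, n = 2 each) gave a Log2FC of -0.12 with an interval from -1.06 to 0.82, so that anything from 0.479-fold to 1.77-fold of the control level was within it.

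XPC and RRM2B act in DNA repair. XPC, the damage sensor of global genome nucleotide excision repair (ENSG00000154767, chr3:14145147-14178621), was at 2211 and 2064 in the controls and at 2150 and 1814 in the AP1AR-DT_OE libraries, and it had the closest pair of controls by difference in log2 of the 9 genes. Its groups overlapped through AP1AR-DT_OE replicate 1, and its Log2FC was -0.11 with an interval from -0.96 to 0.74. RRM2B encodes the p53-inducible small subunit of ribonucleotide reductase, which supplies deoxynucleotides for repair outside S phase (ENSG00000048392, chr8:102204502-102238961). It was at 188 and 527 in the controls and at 211 and 381 in the AP1AR-DT_OE libraries. The controls of RRM2B were the farthest apart of the 9 genes, and both AP1AR-DT_OE values fell between them (Log2FC = -0.27, interval -1.48 to 0.93).

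SESN1, FDXR and TP53I3 tie p53 to metabolism and redox state. SESN1, which encodes a sestrin that restrains mTORC1 signalling (ENSG00000080546, chr6:108986437-109094819), was at 230 and 482 in the controls and at 235 and 354 with AP1AR-DT_OE. FDXR, the mitochondrial ferredoxin reductase (ENSG00000161513, chr17:74862497-74873031), was at 2761 and 1628 in the controls and at 2427 and 1882 with AP1AR-DT_OE. In both genes the AP1AR-DT_OE values lay inside the range of the controls, but control 2 was the higher control for SESN1 and the lower one for FDXR. Their Log2FC values were -0.28 (interval -1.38 to 0.83) and -0.03 (interval -0.95 to 0.90). TP53I3, a quinone oxidoreductase first known as PIG3 (ENSG00000115129, chr2:24077433-24085861), was at 1377 and 1200 in the controls and at 1225 and 1233 with AP1AR-DT_OE, the narrowest span of the 9 genes (highest over lowest 1.15). Its Log2FC of -0.07 had an interval from -0.93 to 0.79. The gene overlaps FAM228B, which had between 12 and 50 counts.

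ZMAT3, a zinc finger RNA-binding protein that acts on splicing and RNA stability downstream of p53 (ENSG00000172667, chr3:178960121-179072215), was at 720 and 1286 in the controls and at 654 and 1010 in the AP1AR-DT_OE libraries. As for MDM2, replicate 1 was the lower library of each group, and the groups overlapped. The Log2FC was -0.27 with an interval from -1.26 to 0.72.

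GDF15, a distant member of the TGF-beta family that is secreted under many kinds of cell stress and is also induced without p53 by ATF4 and CHOP (ENSG00000130513, chr19:18374731-18389176), was at 2189 and 3906 in the controls and at 1012 and 1434 in the AP1AR-DT_OE libraries. These values rested on 1922 and 5063 counts in the controls and on 923 and 1445 counts with AP1AR-DT_OE. Both AP1AR-DT_OE libraries were below both controls. The means were 3047 ± 1214 and 1223 ± 298 (SD, n = 2 each), a Log2FC of -1.32 (SE = 0.48, interval -2.27 to -0.37). The DESeq2 adjusted p over all genes was 1.00 in the fit without a covariate, so the difference did not pass there, and the call depends on that choice of model. An exact permutation test of 2 against 2 libraries cannot go below a two-sided p of 0.333. Without control replicate 1 the Log2FC was -1.68, and without control replicate 2 it was -0.83. Without AP1AR-DT_OE replicate 1 it was -1.09 and without AP1AR-DT_OE replicate 2 it was -1.60, so the direction was the same in all 4 fits. MIR3189, which lies within GDF15, had at most 2 counts.

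**Figure D2:**
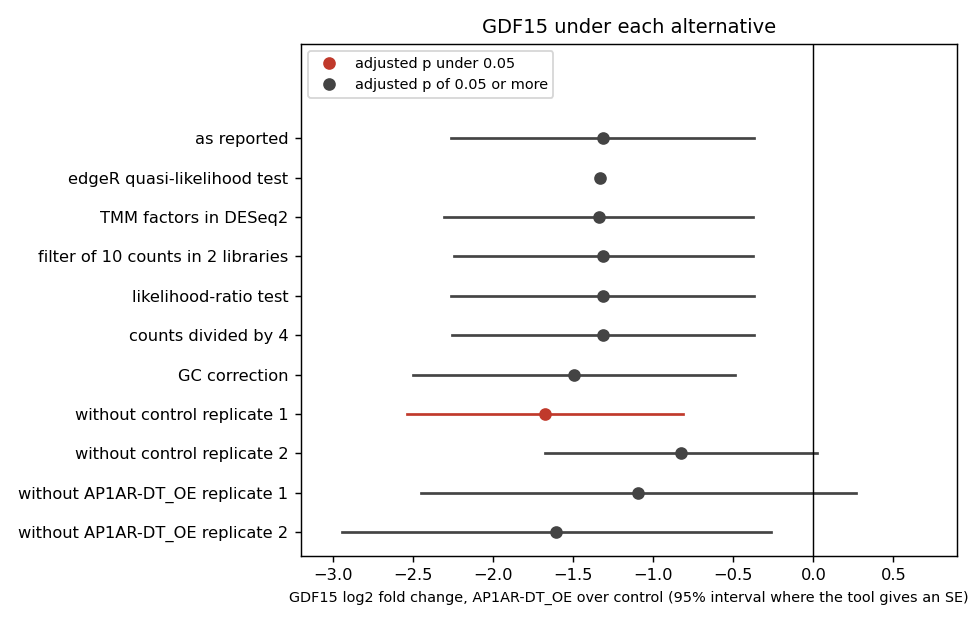
Log2FC of GDF15, AP1AR-DT_OE over control (horizontal axis), under each setting that uses no covariate, with its 95% interval where the tool gives a standard error; red marks an adjusted p under 0.05. The points lie between -1.68 and -0.83, and the one without control replicate 1 is red. In that fit 1 control library was left, and it was assumed to vary like the others.

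The 9 genes were set beside all 13298 genes whose normalized read counts averaged at least 50, a level that all 9 reached. All 9 had a Log2FC below 0, as had 7302 of the 13298 genes, and their median was -0.21, or -0.16 without GDF15, against -0.02 over those genes. Leaving out 1 library turned the sign of 7 of the 9, all but GDF15 and XPC, in at least 1 of the 4 fits. Both AP1AR-DT_OE libraries lay below both controls for 1 of the 9, which is GDF15, where 4.35% of the 13298 genes did so, and above both controls for 0 of the 9, where 5.11% did so. With TMM factors in place of the size factors the count below was 3 (GDF15, XPC and TP53I3) where 4.53% of genes did so. For 7 of the 9 genes, all but GDF15 and XPC, the 2 controls differed from each other by more than the Log2FC between the groups, as they did for 89.1% of the 13298 genes.

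**Figure D3:**
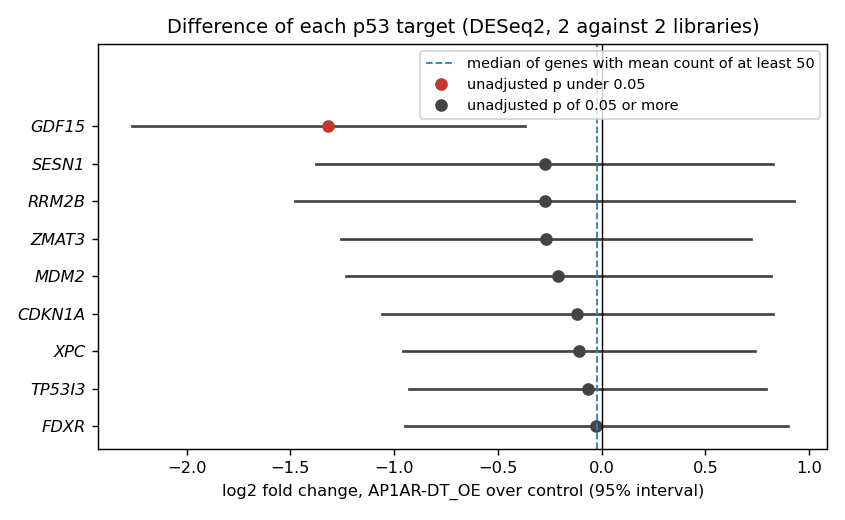
Log2FC of the 9 p53 targets, AP1AR-DT_OE over control (horizontal axis), with 95% intervals from the DESeq2 fit of 2 against 2 libraries; the dashed line is the median of all genes whose normalized read counts averaged at least 50. GDF15, at -1.32, is the one gene whose interval does not reach 0.

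Between replicates the 9 genes moved in both directions, and apart from GDF15 the difference between the controls followed the GC content of the longest transcript. The 4 AT-rich targets were higher in control 2 than in control 1, by a log2 ratio of 1.49 for RRM2B (35.1% GC), 0.84 for ZMAT3 (38.2%), 0.97 for MDM2 (39.5%) and 1.07 for SESN1 (40.6%). XPC, with a GC content of 51.9%, was nearly level at -0.10. Of the GC-rich targets, CDKN1A (58.1%) was at -0.92, TP53I3 (59.4%) at -0.20 and FDXR (61.8%) at -0.76. A like pattern was seen between the AP1AR-DT_OE libraries, where the log2 ratio of replicate 2 over replicate 1 ran from 0.86 for RRM2B to -0.52 for CDKN1A. As a description over genes that share the same libraries, Spearman's rho of GC content with the control ratio was -0.72 over the 9 targets, -0.83 over the 8 without GDF15, and -0.77 over 13206 genes.

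GDF15 was the exception. With the highest GC content of the 9 (64.1%), it was 0.84 higher on the log2 scale in control 2 than in control 1. The 457 genes within 1 percentage point of its GC content had a median of -0.77 for the same ratio, with the 5th and 95th percentiles at -1.36 and -0.13. GDF15 thus lay outside the range of 90% of the genes of like composition, on the side of the AT-rich targets. Between the AP1AR-DT_OE libraries it was 0.50 higher in replicate 2, again opposite in sign to CDKN1A and FDXR.

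**Figure D4:**
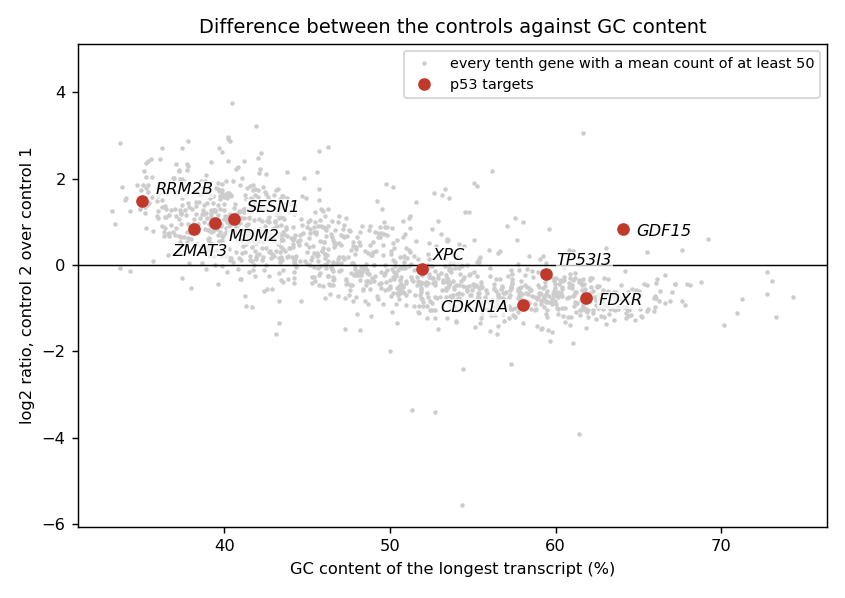
Log2 ratio of control 2 over control 1 (vertical axis) against the GC content of the longest transcript in percent (horizontal axis) for the 9 p53 targets (red, named) and for a regular sample of the genes whose normalized read counts averaged at least 50 (grey). The AT-rich targets lie above 0 and CDKN1A and FDXR below it, while GDF15, at 64.1% GC and 0.84, stands above most grey points of like GC content.

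When each library's trend with GC content was taken out, the spread of 7 of the 9 targets narrowed and that of GDF15 and TP53I3 widened. The ratio of the highest to the lowest library went from 2.80 to 1.08 for RRM2B, from 2.13 to 1.19 for MDM2, from 1.89 to 1.27 for CDKN1A and from 1.70 to 1.05 for FDXR. For GDF15 it went from 3.86 to 5.92, with corrected values of 1729 and 5282 in the controls against 892 and 1594 with AP1AR-DT_OE. On these values 5 of the 9 targets had both AP1AR-DT_OE libraries below both controls (GDF15, SESN1, FDXR, XPC and RRM2B), where 8.98% of the 13298 genes did so. Apart from GDF15 the corrected gaps were small. FDXR was at 2191 and 2182 in the controls against 2144 and 2093 with AP1AR-DT_OE, and RRM2B at 301 and 317 against 295 and 294. None of the 9 was called in the corrected fit without a covariate, in which GDF15 had a Log2FC of -1.50 (DESeq2 adjusted p = 0.816).

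**Figure D5:**
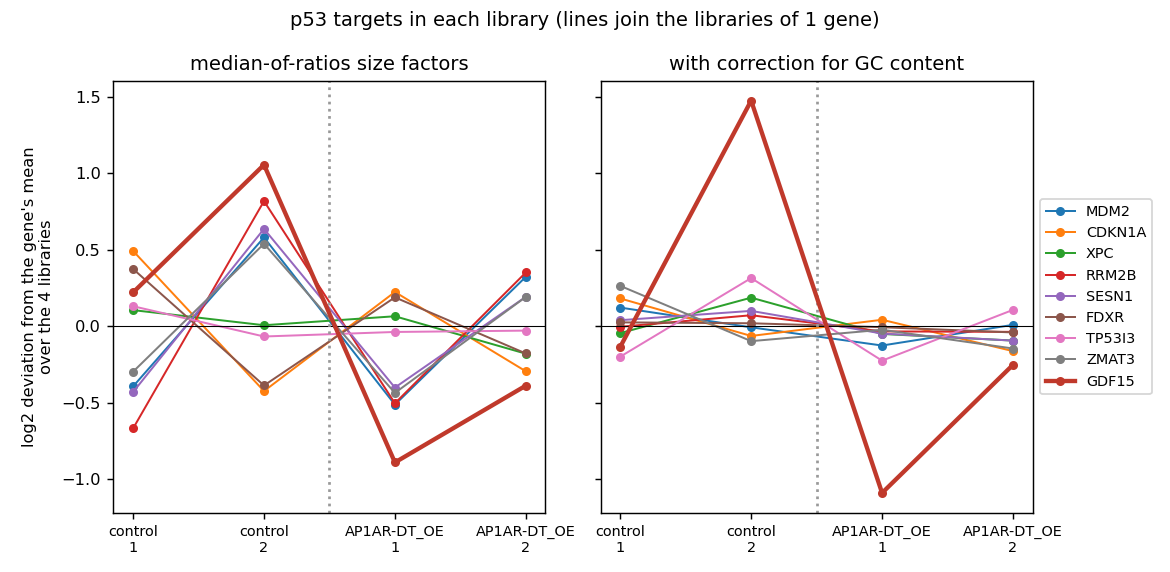
Log2 deviation of each p53 target from its own mean over the 4 libraries (vertical axis), with size factors alone (left) and with the correction for GC content (right); lines join the libraries of 1 gene and GDF15 is the thick red line. On the right GDF15 spans 5.92-fold from its highest to its lowest library, and no other gene spans more than 1.45-fold.

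Levels of the 9 targets were compared with each other as normalized read counts per kilobase of the longest transcript. CDKN1A was the highest, with a mean of 28259 and a range over the 4 libraries from 20369 to 38460, which overlapped with no other target. GDF15 (mean 1445, range 685 to 2642), FDXR (876, range 656 to 1112) and TP53I3 (762, range 726 to 833) came next, and their ranges overlapped. XPC (564, range 497 to 606) lay below these 3 and above MDM2 and overlapped none of them. MDM2 (172, range 115 to 244) overlapped ZMAT3 (103, range 73.2 to 144), and ZMAT3 overlapped RRM2B (68.4, range 39.4 to 110) and SESN1 (57.4, range 40.6 to 85.1). Per length, CDKN1A and XPC were thus the 2 targets set off from their neighbours in the order, while each of the others overlapped at least 1 neighbour.

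Further genes of the pathway were counted in the same fit. Of 30 further targets, which include genes of apoptosis (BAX, BBC3, FAS), the cell cycle (CCNG1, BTG2) and repair (DDB2, POLH), 28 averaged at least 50 normalized read counts. None was called in either direction, and 0 reached an unadjusted p of 0.05 in DESeq2, the lowest p being 0.210. With 0.137% of all genes called and 0.816% at that unadjusted p, a list of this size would be near 0 in any case. Their Log2FC ran from -0.81 to 0.78 with a median of -0.09, and 22 of the 28 were below 0. The groups did not overlap for 1 of them, APAF1, which was above both controls, as were 5.11% of all genes at that level, so the count is near the background.

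The 3 other targets with the largest Log2FC in absolute size were PMAIP1, APAF1 and PHLDA3. PMAIP1, which encodes the pro-apoptotic BH3 protein NOXA, was at 237 and 1008 in the controls and at 280 and 433 with AP1AR-DT_OE (Log2FC = -0.81, SE = 0.64). Its control 2 stood apart from the other 3 libraries. APAF1, the scaffold of the apoptosome, was at 80.9 and 96.4 in the controls and at 106 and 198 with AP1AR-DT_OE (Log2FC = 0.78, SE = 0.64). PHLDA3, an inhibitor of AKT, was at 22483 and 12499 in the controls and at 20092 and 5177 with AP1AR-DT_OE (Log2FC = -0.47, SE = 0.60), so that AP1AR-DT_OE replicate 2 alone was low.

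The profile over the 4 libraries nearest to that of CDKN1A, among the further targets and the regulators, was that of AEN, a nuclease that enhances apoptosis. The root mean square difference between their log2 deviations was 0.06, followed by CDIP1 and SESN2 at 0.07 each. AEN was at 5870 and 3369 in the controls and at 5152 and 3772 with AP1AR-DT_OE. It was picked for its likeness to CDKN1A, so the order of libraries that the 2 genes share is no separate result. The profiles were compared without the correction for GC content. Without it, the log2 ratio of control 2 over control 1 was -0.92 for CDKN1A, -0.80 for AEN, -0.80 for CDIP1 and -0.86 for SESN2. With the correction it was -0.25, -0.58, -0.11 and -0.14 in the same order of genes. Shared regulation was not tested.

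The 10 regulators of p53, among them MDM4, ATM, CHEK2 and USP7, also held 0 called genes and 0 genes at an unadjusted p under 0.05 in DESeq2, with a lowest p of 0.390, which is again near the shares over all genes (0.137% and 0.816%). Their median Log2FC was -0.15, with 8 below 0 and 2 above. The 2 with the largest Log2FC in absolute size were RCHY1 and HIPK2. RCHY1, a ubiquitin ligase for p53 that p53 also induces, was at 29.6 and 105 in the controls and at 77.9 and 112 with AP1AR-DT_OE (Log2FC = 0.49, SE = 0.78). HIPK2, a kinase that phosphorylates p53 under severe damage, was at 3158 and 1895 in the controls and at 2178 and 1638 with AP1AR-DT_OE (Log2FC = -0.40, SE = 0.47). In both genes the groups overlapped. Of the 10 regulators, 1 had both AP1AR-DT_OE libraries below both controls, where 4.35% of all genes did so. It was CHEK1, a checkpoint kinase named here after its values were seen, at 208 and 241 in the controls and at 148 and 199 with AP1AR-DT_OE (Log2FC = -0.37, SE = 0.54).

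Markers of other cell states were set beside GDF15. One of the 9 mesenchymal markers, PRRX1, a homeobox factor of the mesenchymal neuroblastoma state, was lower with AP1AR-DT_OE at an unadjusted p under 0.05, as were 0.816% of all genes in either direction, and neither the adrenergic nor the glial list had such a gene. The mesenchymal list did not move with PRRX1: its median Log2FC was -0.07, with 6 below 0 and 3 above, the latter being VIM (0.12), FN1 (0.06) and COL1A1 (0.14). PRRX1 was at 2770 and 11358 in the controls and at 1241 and 2246 in the AP1AR-DT_OE libraries (Log2FC = -2.02, DESeq2 adjusted p = 0.43). Both AP1AR-DT_OE libraries were below both controls, as for 4.35% of genes that averaged at least 50 normalized read counts. The order of the 4 libraries was that of GDF15. PRRX1 is AT-rich (40.4% GC), and the AT-rich targets were also higher in replicate 2 of each group. GDF15 (64.1% GC) differed between the controls in the direction opposite to most genes of like GC content. The part of cell state in the GDF15 difference was not tested. In these bulk libraries, fewer cells that express a gene and less of its RNA per cell cannot be told apart.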

How the data were processed

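RNA-seq libraries of SK-N-SH cells, 2 control and 2 AP1AR-DT_OE, were grouped and numbered by their titles. Per the paper's methods, the authors aligned paired reads to hg19 with HISAT2 and took a read count per gene from StringTie output with its Python script; the submitters' processing notes name TopHat2 2.0.4, SAMtools, HTSeq, Cuffdiff and edgeR 2.6.12 instead, and the difference could not be resolved. The deposited counts are whole numbers without normalization. Low values piled up at 4 (3287 entries, against 2136 at 3 and 1509 at 5), so a read pair was worth about 4 counts and low counts are less precise than they look. Gene positions are GRCh38 as in the table. Whether counting used strand is not given in the sources used here. The 11 columns of the authors' own comparisons (log2 fold changes, p-values and adjusted p-values, which the authors made with DESeq2 and edgeR) were not used.

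All 24014 genes were fitted with DESeq2, which the study's methods name without giving a test or covariates, in version 1.42.0 in R 4.3.3 (median-of-ratios size factors, two-sided Wald test, no covariate, Benjamini-Hochberg adjustment, default independent filtering), with calls at an adjusted p under 0.05. Intervals are 95% intervals of the Log2FC, and ± is SD. Log2FC is AP1AR-DT_OE over control. Nothing says that the replicates were separate cultures, so p-values measure the spread between these samples, which may be technical. The libraries of a group differed beyond sampling noise and were not copies. Depth was 21988065 to 26184599 counts per library.

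Genes named by rule were the 9 targets, AP1AR-DT and the 3 genes whose profile was nearest to CDKN1A. Also by rule came the 3 further targets and 2 regulators with the largest absolute Log2FC at a mean normalized count of at least 50. Any called gene of these lists would have been added, and there was none. PRRX1, CHEK1, VIM, FN1, COL1A1, CHAC1 and PSAT1 were named after their values were seen. The 9 targets and all lists were chosen with earlier results of these data known. For GC content and length the longest transcript of a gene was taken from GENCODE v44 (GRCh37 version) by gene ID, which found 23954 genes, and the correction removed a lowess trend (span 0.3) per library. Alternatives were edgeR 4.0.16 with TMM factors, TMM factors in DESeq2, a filter of 10 counts in 2 libraries, the likelihood-ratio test, counts divided by 4, the GC correction, the replicate number as a block, and each library left out in turn. The edgeR test with the block, and the counts of called genes with a library left out, were chosen after seeing the data. The fits were also run on simulated counts. These had no GC trend, no replicate effect and no pile-up of low values, so the simulation does not cover those features.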

Additional observations from a re-analysis of the deposited data

How the results depend on the processing

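The number of genes called, 33, was 0 with edgeR's quasi-likelihood test (where 112 had an unadjusted p below 0.05), 15 when counts were divided by 4, 55 with the GC correction, 59 with the GC correction and the replicate block, and 45 to 90 with a library left out. The number of p53 targets called, 0, was 1 (GDF15) with the replicate block, with the GC correction and replicate block, with edgeR and the replicate block, and without control replicate 1, so it was 0 to 1 with a library left out. The targets whose groups did not overlap, 1 as reported, numbered 3 with TMM factors (9.51% of all genes in either direction), 5 with the GC correction (18.7%) and 2 to 8 with a library left out. With 1 library in a group the share over all genes was itself 29.2% to 80.1%, so those counts say nothing about the targets. The lone library of a group was then assumed to vary like the others.

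The replicate numbers were not shown to pair the libraries, since the labels name no shared batch and there are 2 pairs; the deviations of same-numbered libraries correlated at 0.49 over 13298 genes. With the replicate block 37 genes were called, 16 of them among the 33, and GDF15 had a Log2FC of -1.28 (DESeq2 adjusted p = 1.56e-05). It was -1.35 with the GC correction and block (adjusted p = 4.97e-08) and -1.29 with edgeR and the block (adjusted p = 0.0392).

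GDF15 was below 0 in every alternative, from -1.68 to -0.83. FDXR turned to 0.0116 with the block and to 0.0048 with edgeR and the block; CDIP1, at 0.01, turned to -0.0007 with the GC correction and to -0.0021 with that and the block. With a library left out the sign turned for CDKN1A (-0.49 to 0.41), MDM2 (-0.70 to 0.37), SESN1 (-0.71 to 0.37), FDXR (-0.35 to 0.40), RRM2B (-0.84 to 0.67), TP53I3 (-0.15 to 0.0327), ZMAT3 (-0.63 to 0.22), PMAIP1 (-1.50 to 0.60), PHLDA3 (-1.76 to 0.19), RCHY1 (-0.15 to 1.69), HIPK2 (-0.72 to 0.0102), AEN (-0.39 to 0.41), CDIP1 (-0.32 to 0.47) and SESN2 (-0.52 to 0.33). The median over the targets stayed below 0, from -0.62 to -0.07. The causes were not tested.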

Other observations

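GDF15 is also a target of ATF4 and CHOP, the factors of the integrated stress response, and a list of 16 genes of that pathway was set beside it after its values were seen. None of the 15 that averaged at least 50 normalized read counts was called by DESeq2 or had an unadjusted p under 0.05, and the lowest p was 0.350; with 0.137% of all genes called and 0.816% at that unadjusted p, so short a list would be near 0 in any case. Their Log2FC ran from -0.74 to 0.30 with a median of -0.02, 8 below 0 and 7 above. Among them CHAC1, a glutathione-degrading enzyme, was below both controls in both AP1AR-DT_OE libraries, and PSAT1, an enzyme of serine synthesis, was above both. Over all genes 4.35% were below and 5.11% above, so 1 in each direction is near the background. SESN2 belongs to this list and to the further p53 targets.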
